A study of Mus musculus with 3 samples.

Results

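The Ebf1 locus was described by 60 of the 47610 peaks called in a cultured mouse model of acute lymphoblastic leukaemia of pre-B cells. Of these, 49 were peaks of histone H3 acetylated at lysine 27 (H3K27ac), out of 29468, and 11 were peaks of histone H3 trimethylated at lysine 4 (H3K4me3), out of 18142. Members were selected by position: every peak of either list that overlapped chr11:44200000-45000000 on the mouse build mm9, which holds Ebf1 (about 44.43 to 44.82 Mb) and its flanks. The locus was proposed with the calls of both lists in view, so the number, size and score of its peaks are given as a description. The cells were driven by Bcr-Abl, a fusion that encodes a constitutively active tyrosine kinase, and were neither stimulated nor treated. All 3 samples came from these cells: 1 chromatin immunoprecipitation (ChIP-seq) of each mark and 1 with control immunoglobulin (IgG), whose own signal was not analysed here. The labels name no further genotype, no promoter driving the fusion and no clone, and each mark has 1 library, so no value below has a replicate error and no test between samples was made. The cell type could not be checked on marker genes, since no mm9 annotation was used here.

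Ebf1 encodes early B-cell factor 1, a DNA-binding protein that acts with the E protein E2A and with Pax5 to specify the B lineage and switches on genes such as Cd79a, Igll1 and Vpreb1. In B-cell precursors Ebf1 is known to be read from a distal and a proximal promoter, and loss of 1 copy recurs in human acute lymphoblastic leukaemia. H3K4me3 is a mark of promoters, and H3K27ac marks both active promoters and active enhancers, the distal elements that raise transcription from a promoter. Neither mark by itself shows that a gene is transcribed.

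The RefSeq start sites used here include 2 for Ebf1 on build GRCm38.p6. Both are on the plus strand and 2128 bp apart, so that the gene reads from left to right here. RefSeq lists 16 transcript accessions for Ebf1, and the 2 starts were not matched to the distal and proximal promoters. The sequences upstream of the 2 starts are shown because the widest H3K4me3 peak of the locus lies at the start of the gene. They belong to another build than the peaks and were not placed inside them. Each runs 5′ to 3′ over the 250 bases before the start. Capitals mark CpG dinucleotides, the feature recognised by CpG-binding proteins of the complexes that write H3K4me3.
Upstream start, chr11:44617850-44618099: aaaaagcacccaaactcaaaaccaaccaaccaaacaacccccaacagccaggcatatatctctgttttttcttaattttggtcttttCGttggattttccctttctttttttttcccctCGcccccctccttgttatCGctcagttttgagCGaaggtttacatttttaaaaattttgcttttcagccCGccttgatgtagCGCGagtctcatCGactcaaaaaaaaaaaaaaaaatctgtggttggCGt
Downstream start, chr11:44619978-44620227: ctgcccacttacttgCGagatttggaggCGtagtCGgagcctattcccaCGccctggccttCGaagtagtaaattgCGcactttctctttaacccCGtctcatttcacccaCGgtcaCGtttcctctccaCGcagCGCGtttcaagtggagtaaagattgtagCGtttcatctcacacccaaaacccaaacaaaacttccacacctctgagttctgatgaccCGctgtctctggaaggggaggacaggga

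The upstream window was rich in A and T. Its GC content was 40.0%, lower than in most of the 32817 start windows of the reference (11.8% of them had less), and it contained an unbroken run of 17 A. The downstream window had a GC content of 52.0%, close to the median of 52.4%. They held 9 and 14 CpG dinucleotides, against a median of 6 over all start windows, and 59.7% and 70.7% of the start windows held fewer. The E-box CANNTG, the letters that E proteins bind, occurred once (1 match, 108 bases before the start) in the downstream window and not in the upstream window; 66.2% of all start windows held at least 1 match. GGAA, the core of sites bound by ETS proteins, occurred 2 times upstream and 4 times downstream, against a median of 3, and 93.4% of all start windows held it. Neither window held the STAT palindrome TTCNNNGAA (7.01% of start windows did), TATAAA (12.4%) or GGGCGG (32.7%). All were searched on both strands, and a match is not shown to be a bound site.

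The widest H3K4me3 peak of the locus lay at the start of Ebf1, and both marks formed a pair of neighbouring peaks there. An H3K4me3 peak of 9179 bp (44429166 to 44438344) ran from -0.83 to 8.34 kb relative to the approximate gene start. It was the 19th widest H3K4me3 peak of the whole list, wider than 99.9% of them. A second H3K4me3 peak of 3823 bp (44424244 to 44428066) lay 1099 bp to its left, just outside the approximate gene, and the 2 peaks together put 13.0 kb under H3K4me3 over a span of 14.1 kb. Whether the left peak belongs to the distal Ebf1 promoter or to another transcript was not tested.

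H3K27ac at the start had nearly the same extent, with edges that differed from those of H3K4me3 by 27 to 710 bp. The right H3K27ac peak measured 10113 bp (44428456 to 44438568), which made it the 299th widest of its list, and it contained the 9179 bp H3K4me3 peak whole. The left one measured 3750 bp (44424344 to 44428093), and 99.3% of it lay under H3K4me3. All 4 peaks carried a score of 3100. The score is the authors' own value for a peak and is not defined in the files; 3100 was the most frequent score in both lists. It is referred to as the ceiling, and scores above it were rare (243 for H3K27ac and 75 for H3K4me3). Over the whole lists, 24.1% of H3K27ac peaks and 50.3% of H3K4me3 peaks scored at or above it. A weak H3K27ac peak of 491 bp with a score of 50.98, near the lowest score of the list (50.01), closed the start region 11.4 kb into the gene; it was picked after its values were seen.

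**Figure D1:**
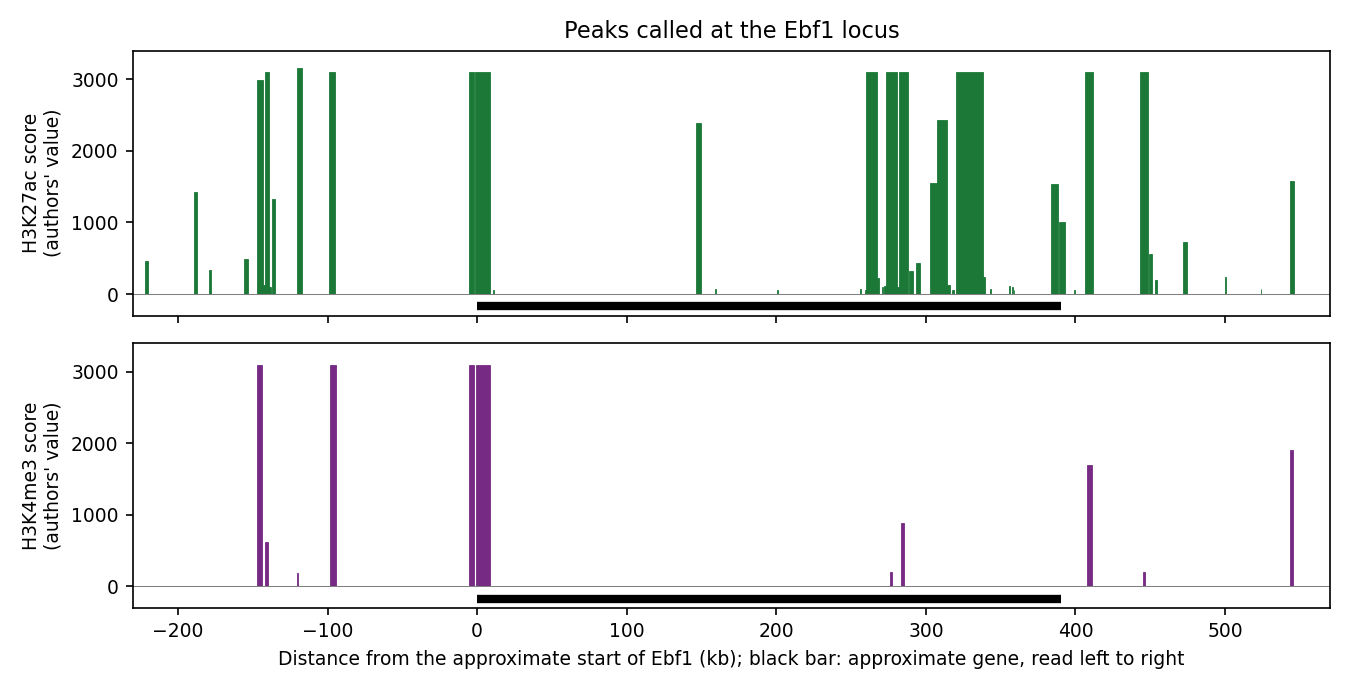
Peaks of H3K27ac (top) and H3K4me3 (bottom) at the Ebf1 locus; x, distance in kb from the approximate start of the gene; y, the authors' score per peak; bar width, peak width (thin outlines keep narrow peaks visible); black bar, approximate gene. Both marks reach the ceiling of 3100 at the gene start, while the dense block of H3K27ac between about 256 and 359 kb has only 2 low H3K4me3 peaks.

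Beyond the start, a long stretch of the gene had almost no called peaks of these 2 marks. No H3K27ac peak was called over 135 kb (44441352 to 44576159), the longest such stretch at the locus, and no H3K4me3 peak over 268 kb (44438345 to 44706028). The latter met 12 H3K27ac peaks, counting the partners of the H3K4me3 peaks on either side of it. The first after the start region with a score over 1000 was singled out after its values were seen. It was 3479 bp wide (44576160 to 44579638) with a score of 2388. This peak lay 126 kb from the nearest H3K4me3 peak and 9434 bp before the next H3K27ac peak. It was followed by a 623 bp peak with a score of 64.4 and a 491 bp peak with a score of 50.98, and then by another 55.0 kb without H3K27ac.

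Deep inside the gene, toward its 3′ end, lay a dense cluster of H3K27ac peaks. When H3K27ac peaks within 12500 bp of each other were stitched, as is usual for clustered enhancers, 21 peaks fell into 1 region of 103 kb (44685929 to 44789017), from 256 to 359 kb after the approximate gene start. H3K27ac peaks covered 65.0% of it. Their summed length of 67.0 kb ranked 9th among the 16134 stitched regions of the whole list and made up 47.1% of all H3K27ac length at the locus. Read density was not at hand, so this ranks length and not signal. The rank depends on the stitching distance: at 5000 bp the largest region of the locus held 34.4 kb and ranked 28th, and at 20000 bp the region kept its 67.0 kb but ranked 18th.

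The cluster was uneven. Its 4 widest peaks held 57.6% of its H3K27ac length, and the widest, 18116 bp (44749879 to 44767994), was the 38th widest of the 29468 H3K27ac peaks. That peak was at the ceiling, had no H3K4me3 and lay 34.4 kb from the nearest H3K4me3 peak. The other ceiling peaks of the cluster measured 6744 bp (44690268 to 44697011), 6921 bp (44703581 to 44710501) and 5791 bp (44711960 to 44717750).

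Between the 5791 bp and the 18116 bp peak lay a pair of wide peaks below the ceiling. They measured 4314 bp (44732900 to 44737213, score 1547) and 6786 bp (44737397 to 44744182, score 2431). The remaining 15 peaks of the cluster were 423 to 2521 bp wide, and 6 of the 21 scored under 100. Many neighbours nearly touched: 11 gaps between peaks of the cluster were 1000 bp or less, so the number of peaks depends on how they were divided when called.

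H3K4me3 was scarce in the cluster. Only 2 of its 21 H3K27ac peaks met H3K4me3, and 5.34% of its H3K27ac length lay under H3K4me3. The H3K4me3 peaks measured 1301 bp (44706029 to 44707329, score 195) and 2276 bp (44713206 to 44715481, score 889), and both sat inside ceiling H3K27ac peaks. Low H3K4me3 was usual among the longest regions of the list. Over the 9 regions at least as long as this cluster, itself included, the share ranged from 1.77% to 33.0% with a median of 5.68%, and 3 regions had a lower share than the Ebf1 cluster.

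**Figure D2:**
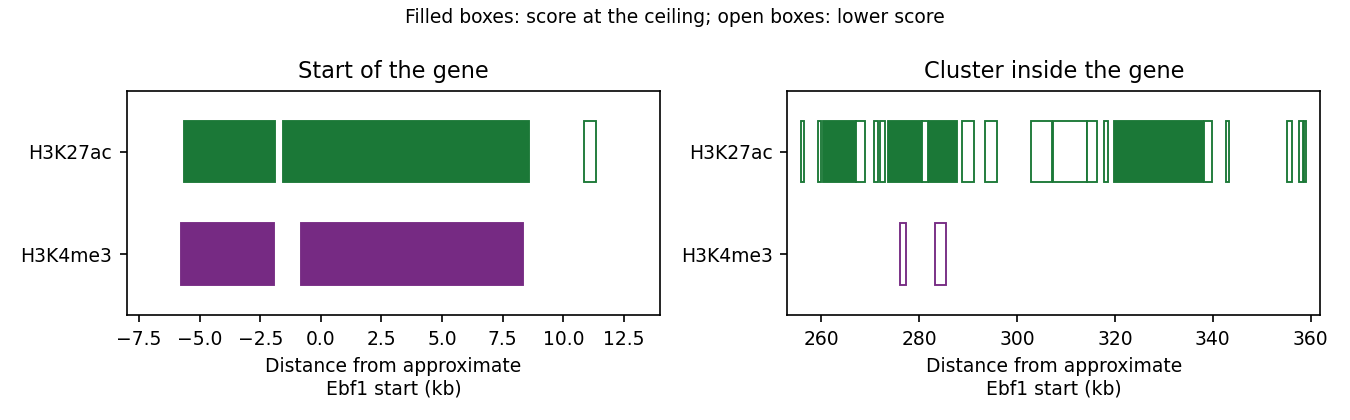
Peak positions at the start of Ebf1 (left) and in the cluster inside the gene (right); x, distance in kb from the approximate gene start; boxes, peaks of each mark, filled at a score of 3100 and open below it. At the start each H3K27ac box at the ceiling has an H3K4me3 box of like extent, whereas in the cluster 2 of the 4 filled H3K27ac boxes, including the 18116 bp peak, have none.

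At the 3′ end of the gene a pair of wide H3K27ac peaks carried no H3K4me3. They measured 5103 bp (44813395 to 44818497, score 1531) and 4024 bp (44818983 to 44823006, score 1008), and the latter ran across the approximate gene end.

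The downstream flank of 180 kb held 9 H3K27ac and 3 H3K4me3 peaks. The wider of the H3K27ac peaks at the ceiling there was 5395 bp (44836282 to 44841676), and it contained an H3K4me3 peak of 3122 bp with a score of 1701 (44837988 to 44841109). The other, of 4987 bp (44873390 to 44878376), contained an H3K4me3 peak of 1623 bp with a score of 207 (44875021 to 44876643). The last members on the right were an H3K27ac peak of 2462 bp (44973388 to 44975849, score 1587) and an H3K4me3 peak of 1966 bp inside it (44973639 to 44975604, score 1904). In the reference, the genes that follow Ebf1 in order are the long noncoding RNA genes Gm51859 and Gm12159. Peaks were not assigned to them, because the reference and the files follow different builds.

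The upstream flank of 230 kb held 12 H3K27ac and 5 H3K4me3 peaks, and here the marks were more evenly matched in length. In the reference, the protein-coding genes before Ebf1 are, in order, Il12b, which encodes a subunit of interleukin-12, Ublcp1, a phosphatase that acts on the proteasome, and Rnf145, a ubiquitin ligase of the endoplasmic reticulum. Between Rnf145 and Ebf1 it lists the long noncoding RNA genes Gm51891, 4930597A21Rik and Gm39815. Peaks were not assigned to these either. Whether the H3K4me3 peaks of this flank belong to Ebf1 or to these other genes was not tested.

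Besides the peak next to the gene start, 2 H3K4me3 peaks of this flank were at the ceiling. The wider, 4217 bp (44331324 to 44335540), almost coincided with an H3K27ac peak of 3911 bp at the ceiling (44331234 to 44335144). The other, 2801 bp (44283050 to 44285850), met an H3K27ac peak of 3600 bp with a score of 2993 (44283125 to 44286724).

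The other H3K4me3 peaks of this flank scored below the ceiling, while their H3K27ac partners reached it. One of 1727 bp with a score of 622 (44288365 to 44290091) lay inside a ceiling H3K27ac peak of 3127 bp (44287944 to 44291070). The other, 783 bp with a score of 183 (44309400 to 44310182), was the narrowest H3K4me3 peak of the locus. It sat at the left edge of an H3K27ac peak of 3253 bp (44309410 to 44312662) whose score of 3165 was the highest at the locus. The first H3K27ac member from the left was 2141 bp wide with a score of 457 (44208093 to 44210233).

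The window limits cut H3K27ac but not H3K4me3. The nearest H3K27ac peaks just outside measured 2013 bp (score 531, 3.54 kb to the left) and 457 bp (score 55.0, 22.6 kb to the right), while the nearest H3K4me3 peaks outside lay 619 kb to the left and 642 kb to the right. The 11 H3K4me3 peaks were thus all those of a 2.06 Mb stretch of chromosome 11 (43581180 to 45642328), in which 19 further H3K27ac peaks fell outside the window.

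The ratio of the marks changed along the locus. H3K27ac peaks covered 142 kb (17.8%) of the window and H3K4me3 peaks 32.8 kb (4.10%). H3K27ac length was 2.22 times the H3K4me3 length in the upstream flank, 7.28 times in the gene and 3.58 times in the downstream flank, against 1.84 times over the whole lists. Inside the gene 86.7 kb lay under H3K27ac, of which 74.8 kb had no H3K4me3. Almost all H3K4me3 length of the window (98.2%) was also under H3K27ac, against 84.3% over all peaks.

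Each H3K4me3 peak met exactly 1 H3K27ac peak, which gave 11 pairs. H3K27ac was the wider mark in 9 pairs and contained the H3K4me3 peak whole in 7, and no H3K4me3 peak contained its partner whole. The same counts were not made over all pairs of the lists, so they are not shown to be particular to this locus. The pairs at the gene start were of like width, with H3K27ac 1.10 and 0.98 times as wide as H3K4me3, and at the 4217 bp peak upstream the ratio was 0.93. In the cluster H3K27ac was 5.32 and 2.54 times as wide as its H3K4me3 partner, with acetylation running 1.25 to 3.17 kb past H3K4me3 on either side. The widest mismatch upstream was 4.15 times, at the 783 bp peak, where acetylation ran 2.48 kb past H3K4me3 on the right and 10 bp less far on the left.

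**Figure D3:**
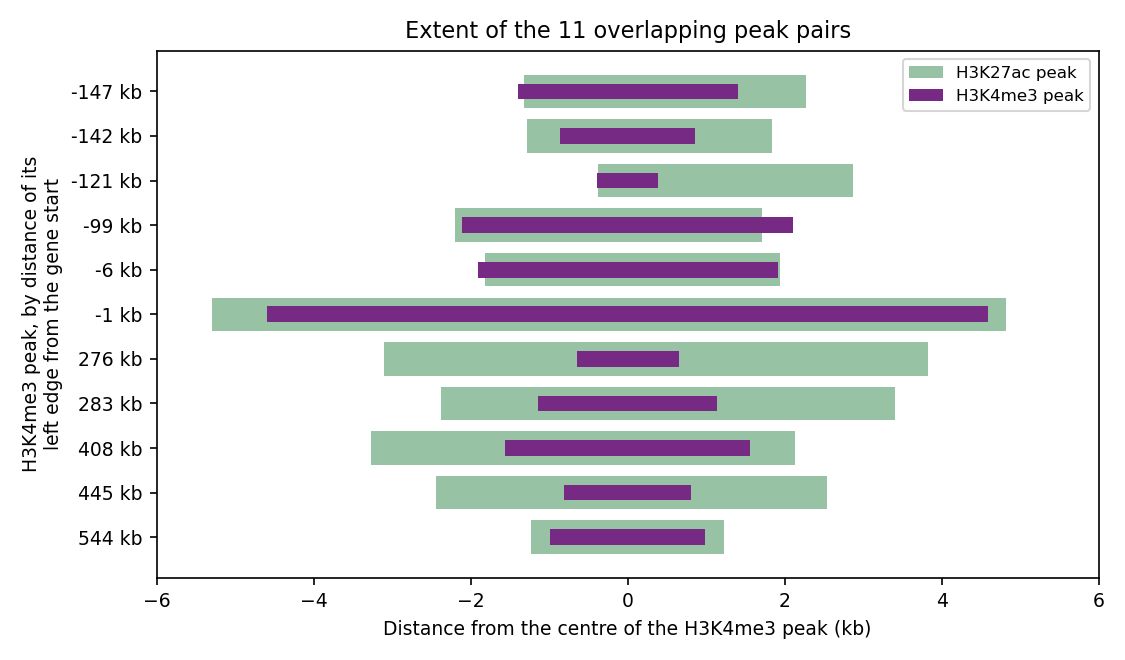
The 11 pairs of overlapping peaks, each centred on its H3K4me3 peak (purple) with the H3K27ac peak (green) behind it; x, distance in kb from that centre; rows, pairs in order along the chromosome, named by the distance of the left H3K4me3 edge from the approximate gene start. The pairs at -99, -6 and -1 kb have like extents, and those at 276 and 283 kb show a narrow H3K4me3 peak inside wide H3K27ac.

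Most H3K27ac peaks of the locus lay outside H3K4me3. Of the 49, 11 overlapped an H3K4me3 peak by at least 1 bp (22.4%, exact Clopper-Pearson 95% interval 11.8 to 36.6%), against 52.3% of all H3K27ac peaks. The interval treats neighbouring peaks as independent and covers counting error only. By segment the overlap was 5 of 12 in the upstream flank, 3 of 28 in the gene and 3 of 9 in the downstream flank. In the other direction 11 of 11 H3K4me3 peaks overlapped H3K27ac (interval 71.5 to 100%), against 86.1% of all H3K4me3 peaks, a share that 11 peaks cannot tell apart from the background.

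The overlap at the locus was concentrated in the strongest H3K27ac peaks. At the ceiling 9 of 11 peaks had H3K4me3 (81.8%), near the 90.8% of all ceiling peaks. Between a score of 1000 and the ceiling 2 of 9 had it, against 73.6% of all peaks in that range. Under a score of 1000 none of 29 did, against 27.6% of all such peaks. Letting a count of 0 stand for up to 3 gives a rough upper limit of 10.3%. This limit treats neighbouring peaks as independent and covers counting error only. Among peaks scoring at least 100 in both lists the share was 29.7% (11 of 37) at the locus and 56.4% of all. With the H3K27ac list shortened to the length of the H3K4me3 list, 26 peaks of the locus were left and 11 of them (42.3%) had H3K4me3, against 72.3% of all.

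Peaks with H3K4me3 were the wider ones at this locus, as over the whole list. The median width was 3911 bp (2462 to 10113 bp) over the 11 H3K27ac peaks that met H3K4me3 and 1404 bp (423 to 18116 bp) over the 38 that did not. The corresponding medians over all peaks were 2245 and 1252 bp. At the locus the range of the former lay within that of the latter, and the widest peak had no H3K4me3. Those 38 peaks lay at a median of 19.5 kb from H3K4me3, and 15 of them (39.5%) were within 10 kb, a share near the 37.3% of all H3K27ac peaks without H3K4me3.

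The median H3K27ac score at the locus was 430.3, lower than the 709.8 of all H3K27ac peaks, and the median H3K4me3 score was 1701, against 3100 over all. The median H3K27ac width was 2141 bp (distribution-free 95% interval 1269 to 2521 bp), and the 1782 bp of all peaks lies within that interval. The interval treats neighbouring peaks as independent, although their number depends on how they were divided when called. At or above the ceiling were 11 of the 49 H3K27ac peaks (22.4%), against 24.1% of all, and 12 of 49 scored under 100 (24.5%), against 17.7% of all. Of the 49, 11 measured at least 4000 bp, against 10.9% of all, and 9 of these lay in the gene and none in the upstream flank. Wide peaks without H3K4me3 numbered 6 (12.2% of the 49), all in the gene, against 2.46% of all H3K27ac peaks. Ceiling peaks without H3K4me3 numbered 2 (4.08% of the 49), against 2.21% of all, a share that rests on 2 peaks. The 10 widest H3K27ac peaks (4314 to 18116 bp) held 52.2% of the H3K27ac length, and 5 of them had no H3K4me3. Over the whole list, 726 of the 3202 H3K27ac peaks of at least 4000 bp had none. For H3K4me3, 4 of 11 peaks were at the ceiling against 50.3% of all, and 2 of 11 measured at least 4000 bp against 5.83% of all, shares that rest on few peaks.

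Width and score rose together among the members. Spearman's rho was 0.94 over the 49 H3K27ac peaks and 0.92 over the 11 H3K4me3 peaks, against 0.89 and 0.86 over the whole lists. These are correlations across peaks of 1 library, which share its depth and, at the upper end, a tied score.

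**Figure D4:**
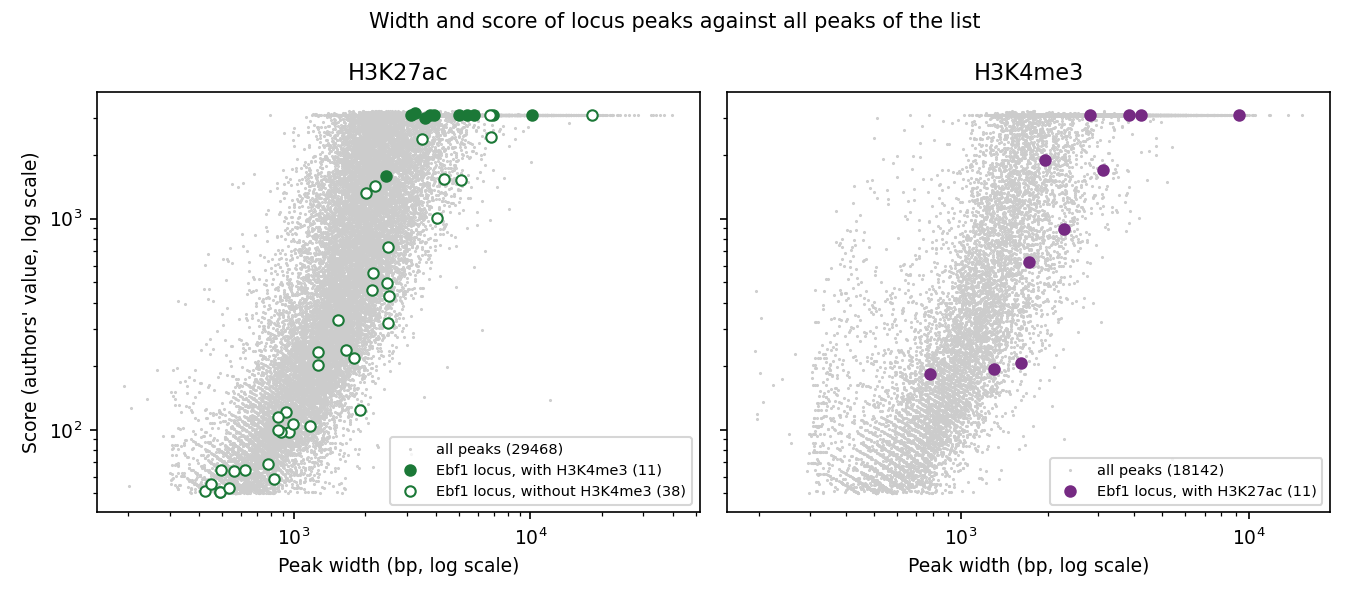
Width (x, bp, log scale) and the authors' score (y, log scale) of H3K27ac peaks (left) and H3K4me3 peaks (right); grey, all peaks of the list; filled circles, locus peaks that overlap the other mark; open circles, locus peaks that do not. Locus peaks follow the general course, filled H3K27ac circles sit at the top with scores of 1587 or more, and the open circle farthest to the right is the 18116 bp peak.

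Set among other parts of the genome, the locus was rich in H3K27ac and less so in H3K4me3. Windows of 800 kb were laid every 100 kb over the autosomes and the X chromosome, so neighbouring windows overlap. By H3K27ac length the Ebf1 window ranked 72nd of 25523, with 142 kb against a median of 10.5 kb. By number of H3K27ac peaks it ranked 108th, with 49 against a median of 6. By H3K4me3 length it ranked 1997th, with 32.8 kb against a median of 6.13 kb, and by number of H3K4me3 peaks 3932nd, with 11 against a median of 3.

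A low ratio of H3K4me3 to H3K27ac was common among windows this rich in H3K27ac. H3K4me3 length was 23.1% of H3K27ac length at Ebf1. Over the 72 windows with at least as much H3K27ac, Ebf1 included, the median was 29.0% (0.98 to 80.1%), and 31 windows were lower. The Ebf1 window was thus not set apart from these 72 by this ratio, although many of them overlap and count the same regions more than once.

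The windows most like the Ebf1 window were found by the Euclidean distance in log2(1 + value) of 4 quantities, the number and covered length of the peaks of each mark. The nearest lay on the same chromosome (11100001 to 11900000, distance 0.38), with 42 H3K27ac and 13 H3K4me3 peaks. Next came chromosome 8 (128700001 to 129500000, distance 0.52), chromosome 5 (136600001 to 137400000, 0.54), chromosome 4 (44200001 to 45000000, 0.59) and chromosome 1 (87600001 to 88400000, 0.61). All 5 held a long stitched H3K27ac region, of 38.3 to 68.7 kb in summed length. Those on chromosomes 5, 8 and 4 ranked 7th, 8th and 10th, next to the 9th rank of the Ebf1 cluster. H3K27ac peaks without H3K4me3 made up 62.8 to 73.8% of the H3K27ac peaks in these windows, against 77.6% (38 of 49) at Ebf1 and 47.7% over the whole list. The windows most like this one thus also had a low overlap, which a choice by the numbers of both marks fixes in part. The widest H3K27ac peak ranged from 9191 bp on chromosome 1 to 39665 bp on chromosome 4, against 18116 bp at Ebf1.

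**Figure D5:**
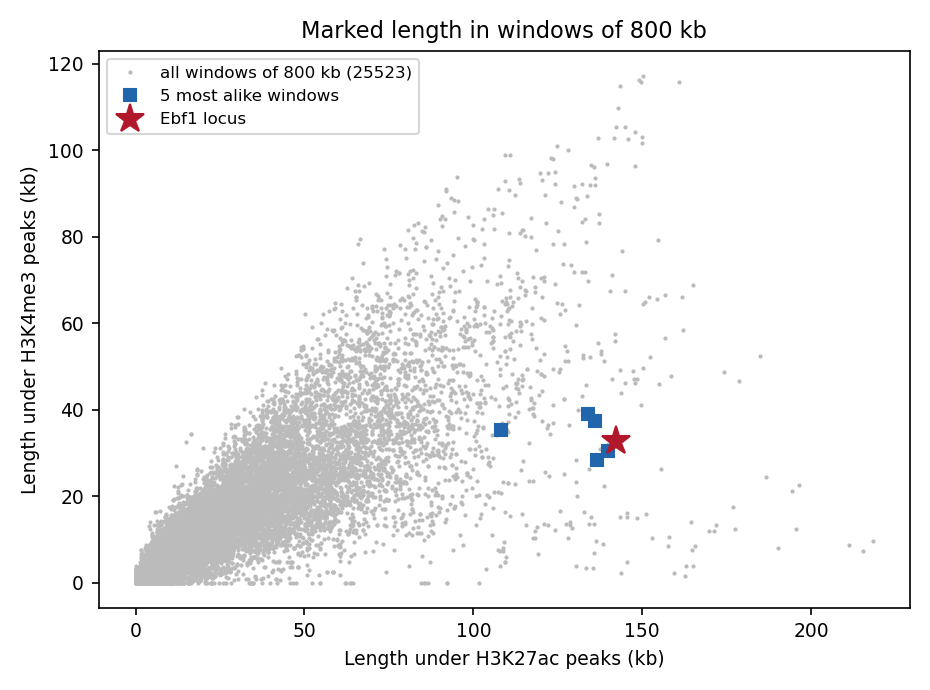
Length under H3K27ac peaks (x, kb) and under H3K4me3 peaks (y, kb) in 25523 windows of 800 kb (grey); red star, the Ebf1 window; blue squares, the 5 windows most like it. The Ebf1 window lies far to the right, at 142 kb of H3K27ac, with 32.8 kb of H3K4me3, and windows with as much H3K27ac lie both above and below it.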

How the data were processed

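Both marks were profiled by ChIP-seq, with 1 library each and 1 IgG control. Peaks were called with MACS on mm9, per the submitters' processing notes; no source used here gives the MACS version, aligner, filters, use of the control or sequencing depth. The deposited lists give position and a score, the authors' own undefined value for each peak. Medians and correlations of the score were taken within a list. The ceiling and the score cut had the same value in both lists. The ceiling was reached by 24.1% of H3K27ac and 50.3% of H3K4me3 peaks, so equal scores need not mean equal strength across marks. Positions are counted from 1. Peaks overlapped when they shared at least 1 bp. Stitching joined H3K27ac peaks up to 12500 bp apart, and the regions were ranked by their summed peak length. Start windows came from RefSeq (GRCm38.p6); the gene reference matched Ebf1 by symbol and was used for names and order only. The members, limits and lists were chosen with earlier results of these data known. The rule named every H3K4me3 peak and, of the H3K27ac peaks, the 10 widest, those at the ceiling, partners of H3K4me3 and the first and last; other peaks named were picked after their values were seen. With 1 library per mark no p-value was computed; a marker check needs an mm9 annotation, which was not used here. Alternatives covered score, joining, overlap, window and stitching distance. Scripts were checked on simulated peaks. The software was NumPy 2.4.6, SciPy 1.17.1, pandas 2.3.3 and matplotlib 3.10.9 under Python 3.11.15.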

Additional observations from a re-analysis of the deposited data

How the results depend on the processing

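Each result was recomputed under its alternatives, which gave 38 values. A share or median was counted as moved outside the 95% interval of its reported value, and a count, length or rank beyond 1.5 times it: 30 had not moved and 8 had. Restricting the window to the approximate gene, which leaves out the flanks by construction, gave 28 H3K27ac and 3 H3K4me3 peaks, 86.7 kb of H3K27ac and an H3K27ac overlap with H3K4me3 of 10.7%. Joining peaks within 1000 bp first left 31 H3K27ac peaks. Lists of the same length raised the H3K27ac overlap to 42.3%. Stitching at 5000 bp gave a largest region of 34.4 kb; at 20000 bp its length did not change, but its rank went from 9th to 18th, a rank not counted among these values. Windows that did not overlap each other put the locus 11th of 3228 by H3K27ac length, since fewer windows were ranked. The overlap of H3K4me3 peaks with H3K27ac was 100% under every alternative run, but most of these could not lower it. Joining, the added distance and the gene limits keep every partner, and the widened window added no H3K4me3 peak. The partners scored 1587 or more, above every score cut. Only asking for at least 50% of the shorter peak could have lowered the share, so the other values do not measure its stability. The number of H3K4me3 peaks likewise had to stay at 11 under the score cut, joining and the widened window. These peaks scored 183 or more, lay at least 1099 bp apart and had no neighbour within 619 kb outside the window. Such fixed values are among the 30 that had not moved, so that count is not a measure of stability. Sequencing depth is unknown, and a deeper library gives more weak peaks, so the number of H3K27ac peaks without H3K4me3 depends on both lists. Gene limits are approximate. No paired analysis was possible because each mark has 1 library.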
